A study of Homo sapiens with 6 samples.

Results

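The NRF2 system genes described here are 9 named genes: the transcription factor gene NFE2L2, its repressor KEAP1, the adaptor SQSTM1, and the target genes GCLC, GCLM, TXNRD1, SRXN1, HMOX1 and NQO1. They were chosen by name and matched 9 of the 60179 gene rows of the count table, 1 row each, and all 9 passed the filter on low counts. The question put to them was whether ultraviolet light and the nitrobenzyl photoproduct left a mark of oxidative stress. HEK293T is a human embryonic kidney line. Every group was co-transfected with the plasmids pShP2419 and pStH1169, which serve to make human TET2, which oxidises methylated cytosine in DNA, in a form that light switches on. All cells were kept for 48 h with 0.1 mM of 4,5-dimethoxy-2-nitrobenzyl-L-serine, a serine whose side chain is blocked by a light-sensitive group. The 3 groups hold 2 libraries each: caged 0 h (no light), uncaged 4 h and uncaged 8 h, the latter both after 3 min of light at 365 nm. For each library 500000 transfected cells were sorted. No group received light without the enzyme or was kept for 4 h or 8 h without light, so light, photoproduct, washing, fresh medium, elapsed time and enzyme cannot be told apart. Whether the 2 libraries of a group came from different dishes is not stated, and the p-values therefore cover the spread between libraries alone, part of which may be technical.

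NRF2, the product of NFE2L2, is made constantly and destroyed constantly. KEAP1 holds it and presents it to a ubiquitin ligase built on CUL3 and RBX1. Electrophiles and oxidants modify cysteines of KEAP1, NRF2 then escapes, pairs with a small MAF protein and binds antioxidant response elements near its target genes, while BACH1 competes for the same elements. Because this control acts on protein, the mRNA of the targets, more than that of NFE2L2, is the usual transcript readout of the pathway.

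The antioxidant response element has the core TGACNNNGC, or GCNNNGTCA read on the other strand. RefSeq promoter windows (GRCh38.p14, 250 bases before to 50 after the start) were matched for 8 of the 9 genes, all but HMOX1. The core was found in 2 of these 8, GCLM with 1 match and TXNRD1 with 2 that do not overlap, against 13.6% of 27305 promoter windows of the same length. Among the other pathway genes listed below 16 of 90 windows held it. Of the 15 of these that passed the filter on low counts, 5 were called higher at 8 h (MAFF, RBX1, SLC3A2, MAP1LC3B and TOLLIP), 2 lower (FECH and GSTA4) and 8 neither. Of the 68 tested without a match 8 were higher, 17 lower and 43 neither, and MAFG, CUL3, PALB2 and SESN2 are among the higher ones. Over all features tested 14.9% were called higher and 13.2% lower at 8 h. The difference between these sets was not tested, and GSTA4, a glutathione transferase gene (-0.36, adjusted p = 0.0266), was singled out after its values were seen. A match is a description of letters and not of a bound site. Elements outside the window, or near other starts of a gene, were not searched, so a gene without a match may still have one. The stretches around the first match of GCLM (chr1:93909431-93909530, minus strand), TXNRD1 (chr12:104215635-104215734, plus strand), MAFF (chr22:38201827-38201926, plus strand), RBX1 (chr22:40951209-40951308, plus strand), FECH (chr18:57586703-57586802, minus strand) and GSTA4 (chr6:52995285-52995384, minus strand) are shown 5′ to 3′ with the core in capitals. They show that the core stood before genes whose mRNA was not called (GCLM and TXNRD1), was called higher (MAFF and RBX1) or was called lower (FECH and GSTA4) at 8 h. The FECH call was close to the threshold (adjusted p = 0.0470, edgeR) and was lost with DESeq2, where those of MAFF and RBX1 were kept. For GSTA4 the alternatives were not followed.
GCLM: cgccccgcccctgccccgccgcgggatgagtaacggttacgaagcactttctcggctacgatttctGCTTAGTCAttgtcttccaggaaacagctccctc
TXNRD1: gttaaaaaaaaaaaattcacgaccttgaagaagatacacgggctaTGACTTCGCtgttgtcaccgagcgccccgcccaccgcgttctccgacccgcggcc
MAFF: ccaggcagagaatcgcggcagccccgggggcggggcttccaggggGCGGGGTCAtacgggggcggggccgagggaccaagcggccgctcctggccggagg
RBX1: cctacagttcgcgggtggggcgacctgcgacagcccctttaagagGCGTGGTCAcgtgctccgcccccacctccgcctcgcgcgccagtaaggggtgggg
FECH: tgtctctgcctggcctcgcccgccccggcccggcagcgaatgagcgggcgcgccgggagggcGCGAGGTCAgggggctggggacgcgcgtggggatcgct
GSTA4: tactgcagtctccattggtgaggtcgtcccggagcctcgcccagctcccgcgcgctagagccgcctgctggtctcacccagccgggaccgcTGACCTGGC

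The libraries held 14903812 to 17670499 estimated counts on genes, and plasmid sequences took a further 11.5% to 11.8% of the caged and 14.8% to 15.5% of the uncaged libraries. All 9 markers listed for HEK293 cells were detected in every library (summed level 623 to 710 CPM, counts scaled to a common library size). Most of that sum was VIM (460 to 522 CPM). The 8 markers of other cell types summed to 22.5 to 25.7 CPM, mostly COL1A1, with the endothelial CDH5 at 0 throughout and the blood marker PTPRC at 0 in 5 of 6 libraries. Others of them were detected in every library: CD14 at 2.4 to 4.49 CPM, ALB at 1.04 to 2.03 CPM and COL3A1 at 0.553 to 1.33 CPM. The HEK293 marker LHX1 stood at 2.37 to 4.44 CPM. Estimates assigned to TET2 rose from a mean of 3277 CPM to 4071 CPM at 4 h and 4541 CPM at 8 h, and reads of the gene and its plasmid copy cannot be separated. Gene counts were lower and plasmid shares higher in the uncaged libraries, and their part in the results was not tested. In bulk RNA fewer cells expressing a gene and less RNA per cell cannot be told apart.

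None of the 9 genes passed the test in any comparison. At 4 h after light 0 of 9 were called by edgeR's quasi-likelihood test with Benjamini-Hochberg adjustment, where 9.72% of the 17449 features tested were called. At 8 h 0 of 9 were called, where 28.1% of all features were, and between 4 h and 8 h 0 of 9, where 3.27% were. DESeq2 also called 0 of the 9 in each comparison, beside 7.30%, 19.3% and 4.28% of all features. At an unadjusted p under 0.05 the edgeR fit had 3 higher and 1 lower at 4 h, where 14.5% of all features were higher and 12.3% lower (26.8% in all). It had 1 higher and 2 lower at 8 h, where 20.8% were higher and 20.3% lower (41.1% in all), and 0 between the times, where 11.8% were higher and 11.3% lower (23.1% in all). The 9 estimates lay on both sides of 0: 5 above and 4 below at 4 h, with a median log2 fold change of 0.10 beside -0.006 over all features, and 5 above and 4 below at 8 h, with a median of 0.10 beside -0.005. The comparisons with caged cells share the same 2 caged libraries. Fold changes below are log2 values ± SE with a 95% interval from the fit, and levels are TMM-normalised counts (CPM).

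**Figure D1:**
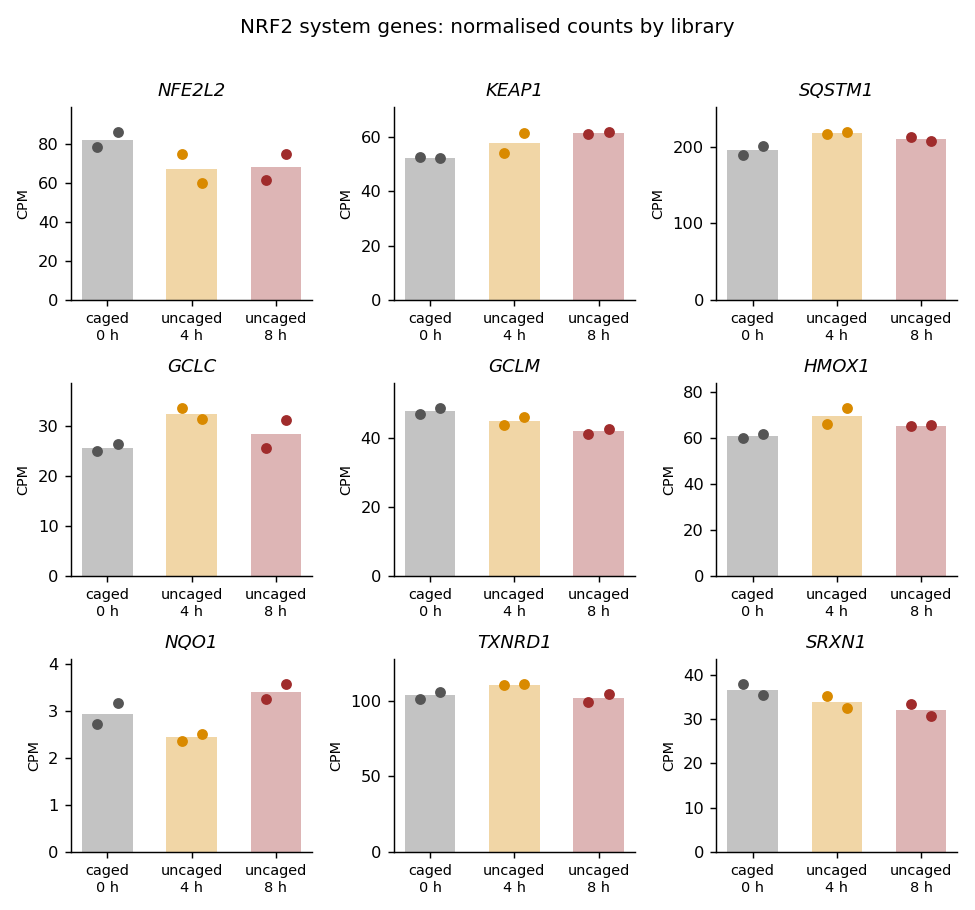
Normalised counts (CPM) of the 9 NRF2 system genes in each of the 6 libraries; points are libraries, bars are group means (n = 2), and each axis starts at 0. HMOX1 stayed between 59.95 and 73.0 CPM and NQO1 between 2.37 and 3.57 CPM across all libraries.

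Among the genes that set NRF2 activity, NFE2L2 (chromosome 2, 177227595 to 177392697, minus strand; all gene positions are GRCh38 as in GENCODE 29) varied most between replicates. Its level was 78.6 and 86.3 CPM in caged cells, 75.2 and 59.96 CPM at 4 h, and 61.8 and 75.3 CPM at 8 h. Both uncaged groups lay below both caged libraries, and the replicates within each uncaged group were further apart than the group means at 4 h and 8 h. The change was -0.29 ± 0.12 at 4 h (interval -0.57 to -0.007, adjusted p = 0.177) and -0.27 ± 0.12 at 8 h (interval -0.55 to 0.015, adjusted p = 0.139). The low libraries were replicate 2 at 4 h and replicate 1 at 8 h. NFE2L2 estimates were not whole numbers in any library, so it shares reads with other transcripts. Estimates were also not whole for SQSTM1 (6 libraries), GCLM (5), GCLC (4), KEAP1 (2), NQO1 (1) and SRXN1 (1).

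KEAP1 (chromosome 19, 10486120 to 10503741, minus strand) stood at 52.5 and 52.5 CPM in caged cells, 54.1 and 61.7 CPM at 4 h, and 61.1 and 61.9 CPM at 8 h. Both 8 h libraries were above both caged ones. The difference at 8 h, 0.23 ± 0.076 (interval 0.054 to 0.40, adjusted p = 0.0551), missed the threshold, and it passed when replicate 1 of the 4 h group was left out of the fit (0.23, adjusted p = 0.0479). At 4 h it was 0.14 ± 0.076 (adjusted p = 0.279).

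SQSTM1 (chromosome 5, 179806398 to 179838078, plus strand) encodes p62, an autophagy receptor that can take KEAP1 away from NRF2 and is itself a target of NRF2. Its level was 190.4 and 201.8 CPM in caged cells, 217.8 and 219.8 CPM at 4 h, and 213.5 and 208.5 CPM at 8 h. The uncaged groups did not overlap the caged one, and the difference was 0.16 ± 0.052 at 4 h (adjusted p = 0.0955) and 0.11 ± 0.052 at 8 h (adjusted p = 0.164). The 8 h value went to -0.066 with cyclic loess offsets, a scaling by abundance.

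The first step of glutathione synthesis is catalysed by glutamate-cysteine ligase, with the catalytic subunit from GCLC and the modifier subunit from GCLM. GCLC (chromosome 6, 53497341 to 53616970, minus strand) was at 24.9 and 26.3 CPM in caged cells, 33.5 and 31.4 CPM at 4 h, and 25.6 and 31.1 CPM at 8 h. At 4 h both libraries lay above both caged ones, and at 8 h the groups overlapped. The 4 h value was 0.34 ± 0.10 (interval 0.11 to 0.58, adjusted p = 0.0699), the highest estimate among the 9 genes at that time. It passed without replicate 1 (0.34, adjusted p = 0.0447) or replicate 2 (0.34, adjusted p = 0.0440) of the 8 h group, which lend only their spread to this comparison. At 8 h it was 0.15 ± 0.10 (adjusted p = 0.320), and -0.005 without 8 h replicate 2.

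GCLM (chromosome 1, 93885205 to 93909456, minus strand) went the other way. Its level was 46.95 and 48.7 CPM in caged cells, 43.7 and 46.3 CPM at 4 h, and 41.4 and 42.8 CPM at 8 h. Both uncaged groups lay under the caged one, with -0.089 ± 0.068 at 4 h (adjusted p = 0.453) and -0.19 ± 0.069 at 8 h (interval -0.34 to -0.029, adjusted p = 0.0755). The estimates of the subunit genes had opposite signs at both times, at 8 h only with replicate 2 of that group, and the difference between them was not tested.

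TXNRD1 encodes the cytosolic thioredoxin reductase and SRXN1 the sulfiredoxin that repairs over-oxidised peroxiredoxins. TXNRD1 (chromosome 12, 104215779 to 104350305, plus strand) stood at 101.3 and 105.8 CPM in caged cells, 110.4 and 111.0 CPM at 4 h, and 98.95 and 104.5 CPM at 8 h. The changes were 0.096 ± 0.059 at 4 h (adjusted p = 0.339) and -0.025 ± 0.059 at 8 h (adjusted p = 0.777), and the 8 h interval ran from 0.894-fold to 1.08-fold. SRXN1 (chromosome 20, 646615 to 653370, minus strand) stood at 37.9 and 35.4 CPM in caged cells, 35.2 and 32.7 CPM at 4 h, and 33.5 and 30.8 CPM at 8 h. All 4 uncaged libraries were under both caged ones, with -0.11 ± 0.081 at 4 h (adjusted p = 0.422) and -0.19 ± 0.082 at 8 h (adjusted p = 0.114).

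HMOX1 encodes the inducible haem oxygenase and is a classical marker of oxidant and ultraviolet-A exposure in cultured cells. HMOX1 (chromosome 22, 35380361 to 35394214, plus strand) was at 59.95 and 61.9 CPM in caged cells, 66.0 and 73.0 CPM at 4 h, and 65.2 and 65.5 CPM at 8 h. The uncaged libraries lay above the caged ones by a small step, 0.19 ± 0.070 at 4 h (adjusted p = 0.124) and 0.10 ± 0.070 at 8 h (adjusted p = 0.310). With library totals alone the 8 h value of HMOX1 was -0.003, so its direction at 8 h depended on the scaling. The upper bound of the interval was 1.27-fold at 4 h and 1.199-fold at 8 h. Its estimates were whole numbers in all 6 libraries.

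NQO1 (chromosome 16, 69706996 to 69726951, minus strand), a quinone reductase, was scarce, with 35.7 to 57.0 estimated counts a library. Its level was 2.73 and 3.16 CPM in caged cells, 2.37 and 2.52 CPM at 4 h, and 3.25 and 3.57 CPM at 8 h. The group at 4 h was the lowest and that at 8 h the highest, without overlap. The intervals were wide: 0.587-fold to 1.17-fold at 4 h (log2 -0.27 ± 0.22, adjusted p = 0.480) and 0.827-fold to 1.62-fold at 8 h (0.21 ± 0.21, adjusted p = 0.489). The 8 h libraries exceeded the 4 h ones by 0.48 ± 0.22, which did not pass the test (adjusted p = 0.236).

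**Figure D2:**
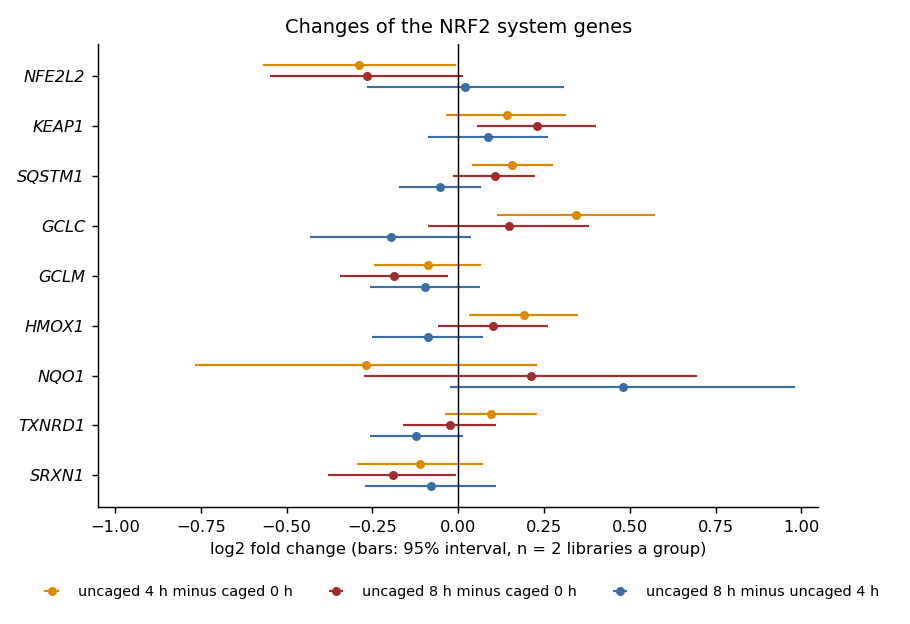
Log2 fold changes of the 9 NRF2 system genes in the 3 comparisons (points) with 95% intervals from the edgeR fit (bars, 2 libraries a group). The widest intervals are those of NQO1, and at 4 h the highest estimate is that of GCLC (0.34) and the lowest that of NFE2L2 (-0.29).

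Each interval covers 1 gene at 4 h or 8 h, not all 9 jointly and not earlier times. Over the 9 genes the highest upper bound was 1.49-fold at 4 h (GCLC) and 1.62-fold at 8 h (NQO1), and the lowest lower bound was 0.587-fold (NQO1) and 0.684-fold (NFE2L2). Groups did not overlap for 9 of the 9 genes at 4 h (5 higher, 4 lower), where 56.9% of all features did not (28.6% higher, 28.3% lower). At 8 h this held for 7 of 9 (4 higher, 3 lower), where it held for 66.2% of all features (32.6% and 33.6%). Between the times it held for 6 of 9 (1 higher, 5 lower), where it held for 53.3% (26.1% and 27.2%). With 2 libraries a group such a separation is common. Between 4 h and 8 h the changes ran from -0.20 (GCLC) to 0.48 (NQO1), with 3 above and 6 below 0.

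Levels can be compared between genes only per length, here as CPM per kilobase of merged exons in GENCODE 29. Merged exons pool all annotated transcripts (7654 bases for SQSTM1, 2405 for HMOX1), so the order may depend on this choice of length. In caged cells SQSTM1 (24.9 and 26.4) and HMOX1 (24.9 and 25.7) were highest and overlapped, followed by TXNRD1 (15.1 and 15.8). KEAP1 (14.0 and 14.0), NFE2L2 (13.2 and 14.4) and SRXN1 (14.1 and 13.1) were not separated from each other beyond their spread. GCLM (8.66 and 8.99), GCLC (2.88 and 3.04) and NQO1 (0.839 and 0.971) came below, each apart from the next. By this length HMOX1 was already among the most abundant of the 9 before light, and NQO1 the least.

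The other genes of the pathway were taken from 7 lists of 112 genes in all, of which 101 passed the filter on low counts. At 4 h 3 were called higher and 3 lower of 101 (2.97% each, beside 6.16% higher and 3.56% lower of all features). At 8 h 14 were higher and 22 lower (13.9% and 21.8%, beside 14.9% and 13.2%), and between 4 h and 8 h 1 higher and 0 lower (beside 2.05% and 1.21%). The median log2 fold change over the 101 was -0.035 at 4 h and -0.098 at 8 h.

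Of the 7 lists, the partners and regulators of NRF2 held the highest log2 fold changes at both times. Of 17 tested, 2 were higher and 0 lower at 4 h (11.8% and 0%, beside 6.16% and 3.56% of all features). At 8 h 5 were higher and 1 lower (29.4% and 5.88%, beside 14.9% and 13.2% of all features). MAFG, a small MAF protein that pairs with NRF2 and also with BACH1, stood at 54.5 and 52.0 CPM in caged cells, 86.9 and 86.8 CPM at 4 h, and 87.6 and 92.3 CPM at 8 h. It rose by 0.70 ± 0.063 (1.63-fold, adjusted p = 0.00152) and 0.76 ± 0.063 (1.69-fold, adjusted p = 0.000343), and held its call under all 13 alternatives at both times. MAFF, another small MAF gene, was scarcer, at 3.603 and 4.44 CPM in caged cells, 7.43 and 5.76 CPM at 4 h, and 8.71 and 7.42 CPM at 8 h. MAFF rose by 1.004 ± 0.19 at 8 h (adjusted p = 0.00698, and 0.0509 without caged replicate 1), whereas its 4 h value of 0.71 ± 0.19 missed the threshold (adjusted p = 0.0540). The third, MAFK, had -0.18 ± 0.088 and -0.13 ± 0.088, neither past the test.

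The competitor BACH1 was at 0.046 ± 0.097 at 4 h and -0.11 ± 0.099 at 8 h, neither past the test. Its relative BACH2, a repressor best known from lymphocytes, was at 13.8 and 13.0 CPM in caged cells, 14.6 and 12.1 CPM at 4 h, and 8.92 and 9.59 CPM at 8 h. BACH2 fell by 0.53 on the log2 scale at 8 h (SE 0.13, adjusted p = 0.0181), a call lost with DESeq2, with cyclic loess offsets and without caged replicate 1, caged replicate 2 or 8 h replicate 1 (adjusted p up to 0.0921 over the alternatives). MAFF, MAFK, BACH1 and BACH2 were singled out after their values were seen.

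CUL3 and RBX1, the scaffold and the RING subunit of the ligase that KEAP1 serves, both rose at 8 h. KEAP1 did not pass the test then (0.23, adjusted p = 0.0551), and its difference from CUL3 and RBX1 was not tested. CUL3 was at 115.7 and 121.4 CPM in caged cells, 137.6 and 137.1 CPM at 4 h, and 174.3 and 199.5 CPM at 8 h. Its 4 h value of 0.21 ± 0.072 did not pass the test (adjusted p = 0.103). CUL3 rose by 0.66 ± 0.071 at 8 h (1.58-fold, adjusted p = 0.000897), and the 8 h libraries exceeded the 4 h ones by 0.44 ± 0.071 (adjusted p = 0.0266, up to 0.153 over the alternatives, and lost without either 4 h library or 8 h replicate 2). RBX1 was at 23.2 and 22.5 CPM in caged cells, 30.2 and 26.9 CPM at 4 h, and 34.9 and 35.6 CPM at 8 h. RBX1 rose by 0.32 ± 0.084 at 4 h, a call close to the threshold (adjusted p = 0.0482) and lost in 11 of 13 alternatives, among them each library left out and DESeq2 (adjusted p up to 0.235). At 8 h it rose by 0.62 ± 0.083 (1.54-fold, adjusted p = 0.00176). PALB2, a DNA repair protein that can bind KEAP1, rose by 0.56 ± 0.097 at 8 h (adjusted p = 0.00488). CUL3, RBX1 and PALB2 held their 8 h calls under all 13 alternatives. CUL3 and MAFF estimates were not whole in 5 libraries and those of PALB2 and MAFG in 3, so these genes share reads with other transcripts.

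**Figure D3:**
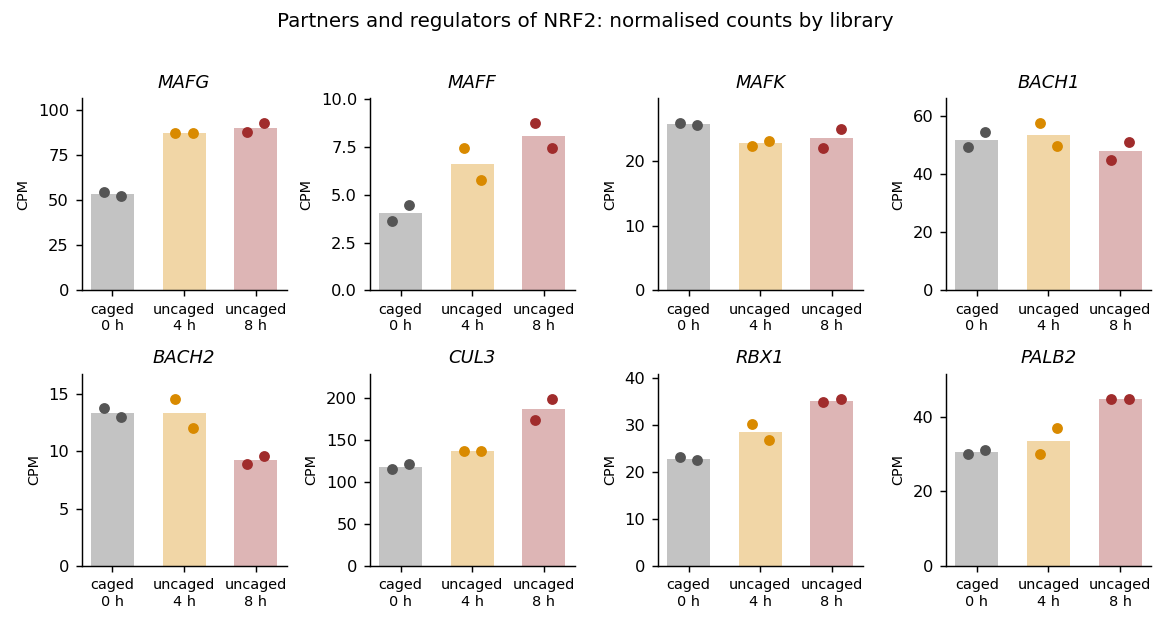
Normalised counts (CPM) of small MAF, BACH and KEAP1-ligase genes and of PALB2 in each library; points are libraries, bars are group means (n = 2), and each axis starts at 0. MAFG was at 52.0 and 54.5 CPM in caged cells and between 86.8 and 92.3 CPM in the 4 uncaged libraries, while BACH1 groups overlapped.

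Of 24 genes of glutathione handling 0 were higher and 1 lower at 4 h (0% and 4.17%, beside 6.16% and 3.56% of all features). At 8 h 2 were higher and 6 lower (8.33% and 25.0%, beside 14.9% and 13.2% of all features). The medians were -0.098 at 4 h and -0.12 at 8 h. GPX8, a peroxidase of the endoplasmic reticulum, was -0.38 ± 0.087 at 4 h (adjusted p = 0.0314) and -0.39 ± 0.087 at 8 h (adjusted p = 0.0134), and at each time it lost its call without either caged library and with cyclic loess offsets, at 4 h also without either 4 h library and with DESeq2, and at 8 h also without 8 h replicate 1 (adjusted p up to 0.178 and 0.0741). The glutaredoxin gene GLRX was lower at 8 h (-0.50 ± 0.12, adjusted p = 0.0168), a call lost with DESeq2, with cyclic loess offsets and without caged replicate 2 or either 8 h library (up to 0.0949 over the alternatives). The higher ones at 8 h were SLC3A2 (0.28 ± 0.053), the heavy chain of the cystine carrier, and the glyoxalase gene GLO1 (0.22 ± 0.044). With cyclic loess offsets SLC3A2 was at 0.021 and GLO1 at -0.032, without caged replicate 1 both lost their calls, and GLO1 did so without 8 h replicate 2 too.

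Among 18 thioredoxin, peroxiredoxin and superoxide genes, 1 was higher and 2 lower at 4 h (5.56% and 11.1%, beside 6.16% and 3.56% of all features). At 8 h 1 was higher and 6 lower (5.56% and 33.3%, beside 14.9% and 13.2% of all features). The higher one was SESN2, a stress-induced sestrin, which went from 426.6 and 436.7 CPM to 527.4 and 559.5 CPM at 4 h and 588.4 and 568.8 CPM at 8 h. It rose by 0.33 ± 0.047 (adjusted p = 0.00625) and 0.42 ± 0.047 (adjusted p = 0.000955). The 8 h call was kept in all 13 alternatives, with a value of 0.17 under cyclic loess offsets, and the 4 h call was lost under these offsets and without 4 h replicate 2 (adjusted p up to 0.0666). Its paralogue SESN3 fell by 0.42 at 8 h (SE 0.067, adjusted p = 0.00350) and kept that call in all 13; its 4 h value (-0.25, adjusted p = 0.0479) was lost in 10 of 13, each library left out among them. TXNIP, the thioredoxin inhibitor, was at 45.5 and 52.6 CPM in caged cells and between 32.0 and 38.2 CPM in the uncaged libraries. The TXNIP change was -0.51 ± 0.11 at 4 h (adjusted p = 0.0250) and -0.48 ± 0.11 at 8 h (adjusted p = 0.0129), lost at both times without caged replicate 2 and at 8 h without 8 h replicate 1; at 4 h it was also lost without either 4 h replicate (adjusted p up to 0.141 at 4 h and 0.0765 at 8 h). The thioredoxin substrate PRDX2 was lower at 8 h (-0.24 ± 0.058, adjusted p = 0.0163), not so without caged replicate 1 or 8 h replicate 2.

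Of 7 NADPH-supplying enzymes 0 were called at 4 h, where 9.72% of all features were. At 8 h 2 were called, both lower (28.6%, beside 13.2% of all features), among them IDH1 (-0.46 ± 0.089, adjusted p = 0.00764, lost without caged replicate 2). Of 10 haem and iron genes 0 were called at 4 h (beside 9.72% of all features). At 8 h 2 were higher and 2 lower (2 of 10 in each direction, beside 14.9% and 13.2% of all features). HMOX2, the constitutive counterpart of HMOX1, was at 48.2 and 49.7 CPM in caged cells, 50.7 and 46.4 CPM at 4 h, and 39.7 and 36.5 CPM at 8 h. HMOX2 was lower at 8 h (-0.36 ± 0.078, adjusted p = 0.0111), a call lost without caged replicate 2 or 8 h replicate 2 (adjusted p up to 0.0636). The ferritin heavy chain gene FTH1 was higher at 8 h (0.20 ± 0.053, adjusted p = 0.0255), but stood at -0.084 with cyclic loess offsets, and its call was lost without either caged library or 8 h replicate 1. ALAS1, the first enzyme of haem synthesis, was higher (0.19 ± 0.054) and FECH, the last, lower (-0.23 ± 0.073), and both calls were lost when any 1 library was left out.

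Of 13 quinone and carbonyl detoxification genes 0 were called at 4 h (beside 9.72% of all features). At 8 h EPHX1 (0.28 ± 0.064) and ABHD4 (0.23 ± 0.063) were higher and CBR3 (-0.91 ± 0.21) and NQO2 (-0.28 ± 0.073) lower (15.4% in each direction, beside 14.9% and 13.2%). Each of these 4 calls was lost without 8 h replicate 1, 8 h replicate 2 or caged replicate 2, and those of EPHX1, ABHD4 and NQO2 without caged replicate 1 too. DESeq2 did not call CBR3, NQO2 or ABHD4, and cyclic loess offsets did not call NQO2 or ABHD4. Of 12 autophagy receptors, ATG8 proteins and MiT/TFE factors, which act with SQSTM1, 0 were called at 4 h (beside 9.72% of all features). At 8 h 2 were higher and 3 lower (16.7% and 25.0%, beside 14.9% and 13.2%). MAP1LC3B, an ATG8 protein that SQSTM1 binds, rose by 0.32 ± 0.066 (adjusted p = 0.00922), not so without caged replicate 1 or 8 h replicate 2. The lysosomal regulators TFEB (-0.29 ± 0.087, adjusted p = 0.0385) and MITF (-0.41 ± 0.10, adjusted p = 0.0181) were lower, both lost under cyclic loess offsets and without caged replicate 2 or 8 h replicate 1, and TFEB also with DESeq2 and without caged replicate 1 or 8 h replicate 2. TOLLIP, an autophagy adaptor, was higher (0.25 ± 0.066, adjusted p = 0.0240), a call lost without any 1 of the 4 libraries compared.

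**Figure D4:**
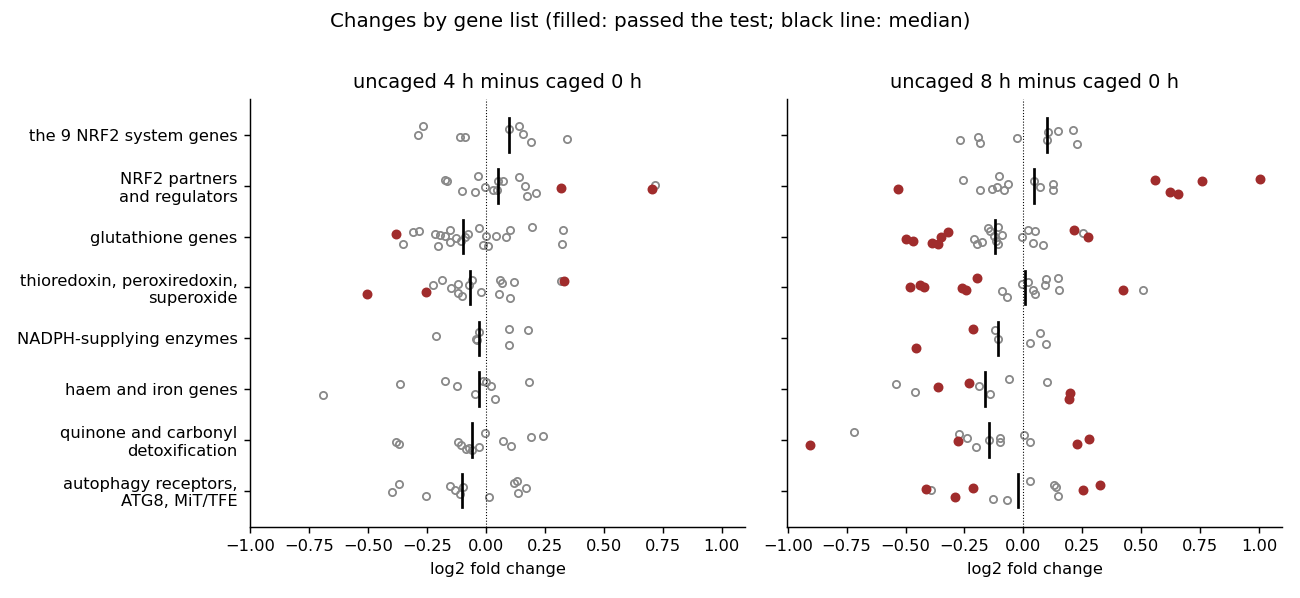
Log2 fold changes at 4 h and 8 h against caged cells for the 9 NRF2 system genes and the tested members of the 7 other lists; each point is a gene, filled points passed the test, and black lines are list medians. None of the 9 is filled in either panel, and the filled points of the partners and regulators reach 1.004 (MAFF at 8 h).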

How the data were processed

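mRNA of 6 libraries (3 groups of 2) was measured. The authors deposited estimated counts per gene (expected counts, not normalised), made with Salmon 1.1.0 on GRCh38 per the submitters' processing notes, which also name R 3.6.1 and DESeq2; annotation, strand setting and DESeq2 version: not given in the sources used here. Estimates that are not whole (tolerance 0.01) mark shared reads. In some or all libraries this held also for GPX8, GLRX, PRDX2, HMOX2, FTH1, FECH, CBR3, NQO2 and MAP1LC3B. Here 5 plasmid rows were left out, and counts were rounded, filtered with filterByExpr (minimum count 10, total 15), scaled by TMM and fitted over all 6 libraries with edgeR 4.0.16 (quasi-likelihood, legacy=TRUE) in R 4.3.3, with Benjamini-Hochberg adjustment over 17449 features and a threshold of 0.05. Intervals are 95%, with 8.43 degrees of freedom; SE is the log2 fold change over the root of F. The common biological coefficient of variation was 6.34%. A count of 0 allows 3 counts, or 0.170 to 0.201 CPM a library, which covers counting error only. Counts of the replicates differed beyond sampling noise, with a chi-square of 3.65 to 4.31 per degree of freedom. Symbols came from a table of gene IDs; SOD2 was not matched.

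Members and lists were chosen with earlier results of these data known. The text names all 9 genes, TET2, from each other list at most the 4 called members of smallest p in each comparison, and the 3 features of at least 5 CPM that correlate best with NFE2L2 and with HMOX1; 1 gene that the rule picked is not reported here. Alternatives were RLE factors, library totals, cyclic loess offsets (limma 3.58.1), plasmid rows included, DESeq2 1.42.0, no filter, a replicate block and each library left out; a lone library was assumed to vary like the other groups.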

Additional observations from a re-analysis of the deposited data

Results flagged for a closer look

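CUL3, the scaffold of the ligase that KEAP1 serves, was the 1 pathway gene tested whose level differed between the light-treated times past the threshold: it was higher at 8 h than at 4 h by 0.44 (log2), from 137.6 and 137.1 CPM to 174.3 and 199.5 CPM (adjusted p = 0.0266, edgeR). The call was lost without either 4 h library, without 8 h replicate 2 and without the filter on low counts, with a value of 0.35 to 0.54 and an adjusted p of 1.89e-05 to 0.153 over the 13 alternatives.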

How the results depend on the processing

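For the 9 NRF2 system genes, 339 of 351 recomputed values stayed on the same side of the threshold without a change of sign beyond 1 SE, 6 passed the threshold and 6 changed sign by more than 1 SE without passing it. With library totals alone, which moved the median of all features by -0.11 at 8 h, 3 were called lower at 8 h: NFE2L2 (-0.37, adjusted p = 0.0446), GCLM (-0.29, adjusted p = 0.0142) and SRXN1 (-0.30, adjusted p = 0.0273). Leaving out 1 library gave 0 to 1 called higher at 4 h, 0 to 1 at 8 h and 0 in the other counts of the 9. Deviations of replicate 1 from its group mean correlated by 0.030 (caged and 4 h), 0.137 (caged and 8 h) and -0.278 (4 h and 8 h). These values cannot show whether the replicate numbers pair the libraries. With the replicate block 0 of the 9 were called, and of the other pathway genes 1 was lower at 4 h in place of 3. All features called then went from 1074 higher and 622 lower to 709 and 330 at 4 h. Between the times they went from 358 and 212 to 151 and 42. Of the other pathway genes, library totals called 8 higher and 38 lower at 8 h in place of 14 and 22, and 3 lower between the times in place of 0. Cyclic loess offsets called 9 higher at 8 h and 2 between the times. DESeq2 called 1 lower at 4 h, 8 lower at 8 h and 2 higher between the times. Without a filter 0 were lower at 4 h and 0 higher between the times. Leaving out 1 library gave 1 to 2 higher and 0 to 2 lower at 4 h, 5 to 13 higher and 3 to 18 lower at 8 h, and 0 to 1 higher between the times. Signs turned under cyclic loess offsets for GLO1 (-0.032) and FTH1 (-0.084) at 8 h. The cause of these differences was not tested. Of the called genes that the naming rule or the text picked, 1 of 6 at 4 h, 6 of 28 at 8 h and 0 of 1 between the times kept the call under all 13 alternatives. Without a filter the calls over all features were 447 higher and 264 lower at 4 h, 1597 and 1794 at 8 h and 48 and 5 between the times; without 1 of the compared libraries they were 165 to 420 and 61 to 153 at 4 h, 1373 to 1727 and 902 to 1369 at 8 h and 6 to 173 and 0 to 28 between the times. DESeq2 called 303 lower at 4 h, 1215 lower at 8 h and 569 higher between the times, and library totals 1595 higher and 3899 lower at 8 h and 447 lower between the times. With library totals 44.7% of the 4 h calls and 29.03% of the 8 h calls were higher in place of 63.3% and 53.0%, and of the calls between the times 35.4% in place of 62.8%. Among the 9 genes, depth limits NQO1 most (35.7 to 57.0 estimated counts a library).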

Other observations

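Over the 6 libraries the features whose log2 CPM followed NFE2L2 most closely, of 11649 with a symbol and a mean of at least 5 CPM, were DCUN1D1 (Pearson r = 0.995), ZNF271P (0.993) and BBS7 (0.991). BBS7 stood at 87.7 and 92.3 CPM in caged cells, 86.7 and 71.7 CPM at 4 h, and 72.5 and 83.7 CPM at 8 h, with the same low libraries as NFE2L2. For HMOX1 they were MGAT1 (0.981), TK2 (0.980) and SMOX (0.979). With so few libraries 86 features exceeded a correlation of 0.95 with NFE2L2 and 16 with HMOX1, and the libraries share their depth and grouping, so these are descriptions.

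Several classical NRF2 targets were too scarce in these cells to be tested. AKR1B10, AKR1C1, AKR1C2, AKR1C3 and PTGR1 stood at 0 to 0.437 CPM in every library, and the glutathione peroxidase gene GPX2 at 0 to 0.199 CPM. The cystine carrier gene SLC7A11 was tested: it was at 43.0 and 41.0 CPM in caged cells, 57.6 and 47.4 CPM at 4 h, and 45.3 and 54.6 CPM at 8 h, and did not pass in any comparison (adjusted p = 0.114 at 4 h and 0.138 at 8 h, edgeR). It was singled out after its values were seen.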
